A study of Mus musculus with 16 samples.

Results

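Heme breakdown and iron handling were followed through 10 genes taken by their symbols from the 43346 gene rows of the count table: Hmox1, Slc40a1, Fth1, Ftl1, Tfrc, Trf, Cp, Slc11a1, Slc11a2 and Hamp. All 10 were found, and 9 passed the filter on low counts. Hamp did not, and is given by its counts. RNA was sequenced from spinal cord of female mice aged 12 weeks, of a strain spelled C57BL7J in the labels, with 4 libraries in each of 4 groups. In injured animals the cord had been contused and compressed at L1/L3 with an 8 g Fejota clip, and tissue was taken on day 30 as 3 pieces of 3 mm each, 1 rostral to the injury (above), 1 holding its center (epicenter) and 1 caudal to it (below). From uninjured mice the same levels (T11 – S1) were kept as 1 piece of 9 mm, so this control averages over levels that the injured cord gives separately, and its labels carry the same time of 30 days. Sample descriptions begin with WT in every group. The labels name no transgene or drug in any group. They leave unsaid whether each library is a separate animal and which segments share a cord, so the p-values reflect the spread among these libraries alone, and that spread may be technical.

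As background, blood that enters injured cord is taken up by phagocytes, and heme oxygenase 1 (Hmox1) opens the heme ring and frees its iron. Iron is stored in ferritin, a shell of heavy (Fth1) and light (Ftl1) chains, or leaves the cell through ferroportin (Slc40a1), after which the ferroxidase ceruloplasmin (Cp) loads it onto transferrin. Hepcidin (Hamp) degrades ferroportin, transferrin (Trf) carries iron to the transferrin receptor (Tfrc), and Slc11a1 and Slc11a2 move iron out of phagosomes and endosomes. In the central nervous system transferrin RNA comes mostly from oligodendrocytes and choroid plexus, transferrin receptor lines brain capillaries, and astrocytes carry ceruloplasmin.

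Several of these mRNAs carry an iron-responsive element, a short hairpin that iron regulatory proteins bind when iron is scarce. In the 5′ UTR it blocks translation, so that the mRNA level alone does not give the protein, while in the 3′ UTR of Tfrc it keeps the mRNA from decay. The sequences are shown because such a hairpin bears on the RNA level itself in the 3′ UTR of Tfrc, and on translation in a 5′ UTR. They were searched for as an unpaired C, 5 stem bases, the loop CAGTGN and 5 bases pairing with the stem, on the sense strand of GENCODE M21 transcripts (GRCm38). They are written 5′ to 3′ as DNA, with the loop in capitals.
Slc40a1, 5′ UTR, chr1:45925471-45925487, minus strand: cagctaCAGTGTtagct
Ftl1, 5′ UTR, chr7:45459785-45459801, minus strand: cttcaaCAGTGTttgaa
Fth1, 5′ UTR, chr19:9982738-9982754, plus strand: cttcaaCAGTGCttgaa
Tfrc, 3′ UTR, chr16:32631225-32631241, plus strand: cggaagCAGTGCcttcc
Tfrc, 3′ UTR, chr16:32631604-32631620, plus strand: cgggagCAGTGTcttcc
Tfrc, 3′ UTR, chr16:32631669-32631685, plus strand: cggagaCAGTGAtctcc
Tfrc, 3′ UTR, chr16:32631716-32631732, plus strand: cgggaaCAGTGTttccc

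Both ferritin hairpins were the same at 16 of 17 bases. Such a hairpin was found in the 5′ UTR of 28 of 20561 genes (0.136%) and in the 3′ UTR of 127 of 20954 (0.606%), and Tfrc was the 1 gene with 4 in its 3′ UTR. Hits in members were kept from coding transcripts tagged as principal, while the counts over all genes used every coding transcript of the basic set. The other members held none in either UTR of their principal transcripts, which says only that these letters are not there. Hairpins with a mismatch or bulge in the stem were not searched for, so these members may still carry an element. A match is a description, not a measured binding site.

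Each library held 65.6 to 90.0 M (mega) counts. Levels are given as CPM, the counts per M counts of the library after scaling, and 3 counts, the 95% upper limit for a gene seen 0 times, equal 0.0316 to 0.0485 CPM in 1 library, covering counting error only. A gene is said to rise, fall or change where edgeR's quasi-likelihood test gave an adjusted p under 0.05 over all 23769 genes tested. In this fit the 4 groups share 1 estimate of the spread per gene. Scatter among the below libraries therefore also enters comparisons that leave them out, and a p there does not reflect the compared groups alone. Below the injury, replicate 3 stood apart from the other libraries of its group, with a score of 112 on principal component 1. That component held 66.4% of the variance. Replicates 1 and 4 were at 34.2 and 42.1, and replicate 2 lay off on the low side at -9.98. Above the injury replicate 1 stood apart, at -18.1 against -54.9 to -53.3. Member calls that changed without below replicate 3 are given beside the results. In these bulk samples, fewer cells of a type and less RNA per cell cannot be told apart.

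Hmox1, which breaks heme down, rose at the epicenter and below the injury. Uninjured libraries held 4.61, 4.81, 4.27 and 4.95 CPM in the order of their replicate numbers, and epicenter libraries 39.6, 44.1, 44.6 and 30.6 CPM. Above the injury the libraries held 9.37, 9.65, 9.05 and 9.61 CPM, and below it 20.5, 11.8, 48.4 and 23.0 CPM. Every library of every segment was above every uninjured library, the segments above were tightly grouped, and below the injury replicate 3 was high and replicate 2 low. The epicenter mean of 39.7 ± 6.49 CPM (SD, n = 4) was 8.53-fold that of uninjured cord (log2 fold change 3.09 ± 0.31, SE, adjusted p = 1.39e-06). Below the injury the log2 fold change was 2.48 ± 0.30 (adjusted p = 1.95e-05), with 1.98 without replicate 3 and 2.72 without replicate 2. Above it, a log2 fold change of 1.02 ± 0.29 did not pass (adjusted p = 0.0751), although the groups did not overlap. Over 27 alternative settings this adjusted p ran from 2.53e-06, with the compared libraries alone, to 0.255. It passed in 6, among them those without below replicate 2 or 3.

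**Figure D1:**
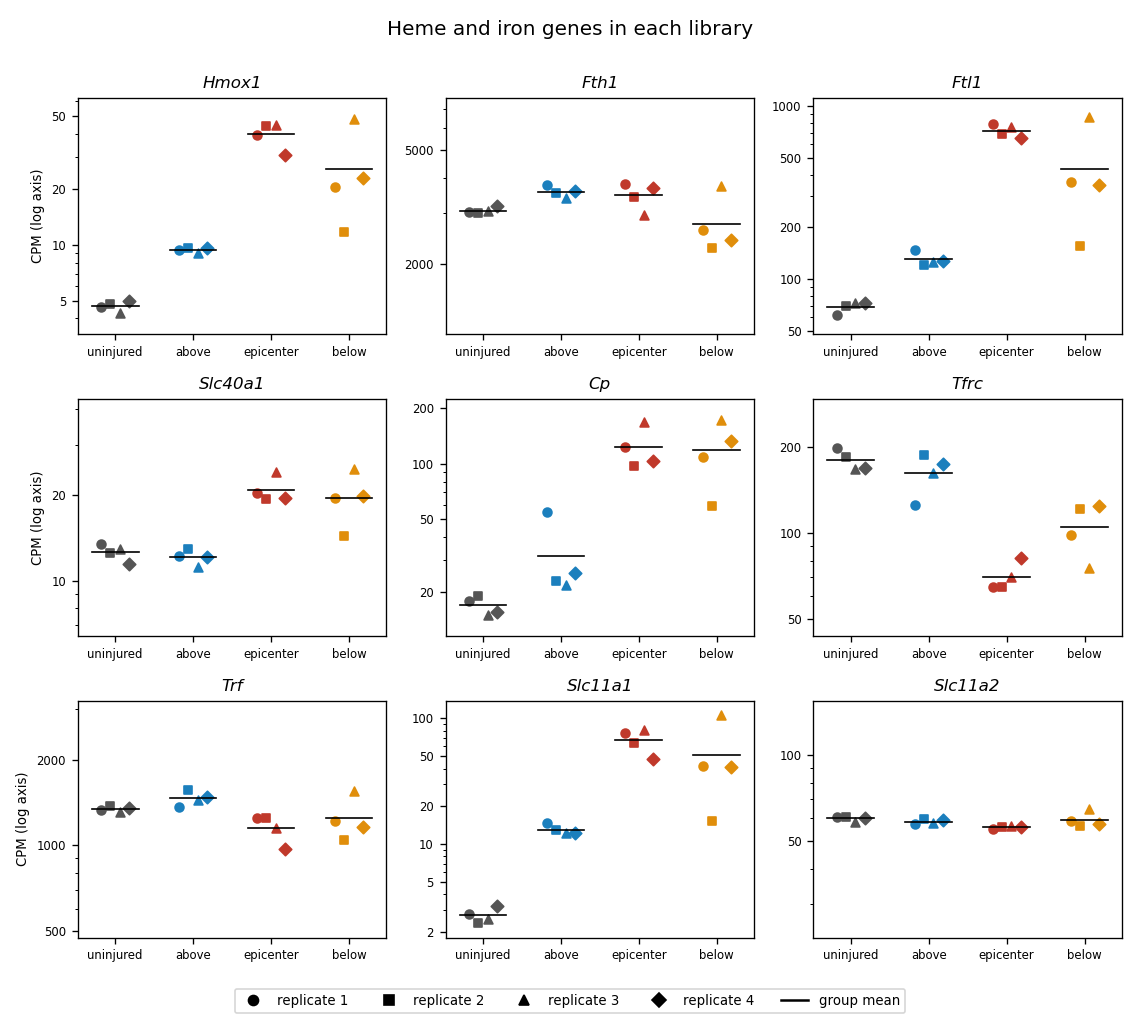
Level of the 9 members that passed the filter in each of the 16 libraries, in CPM on a log axis whose range differs between panels. Symbols give the replicate number and lines the group means; for Hmox1, Ftl1 and Slc11a1 the segments above lie between uninjured cord and the epicenter, and below replicate 3 is the highest library of its group.

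The ferritin chains did not move alike. Ftl1, the light chain, which helps iron mineralise inside the shell, rose at the epicenter and below. Its level was 62.1, 69.2, 72.2 and 72.7 CPM in uninjured cord, against 787, 688, 762 and 651 CPM at the epicenter. Above the injury it was 147, 120, 124 and 126 CPM, and below it 366, 156, 862 and 350 CPM. As for Hmox1, no segment library overlapped uninjured cord, and below the injury replicate 3 was the highest and replicate 2 the lowest. The log2 fold change was 3.39 ± 0.36 at the epicenter (adjusted p = 2.02e-06) and 2.65 ± 0.35 below (adjusted p = 3.42e-05). Below, it was 2.07 without replicate 3 and 2.93 without replicate 2. Above, 0.91 ± 0.33 did not pass (adjusted p = 0.18), but passed in 5 of 27 alternatives, among them that without below replicate 3. The adjusted p ran from 3.81e-06, with the compared libraries alone, to 0.381.

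Fth1, the heavy chain, whose ferroxidase site takes iron into the shell, was the most abundant member. Its level was 3043, 3001, 3059 and 3175 CPM in uninjured cord, 3790, 3530, 3391 and 3604 above, with 3816, 3420, 2971 and 3672 at the epicenter and 2627, 2266, 3742 and 2413 below. The epicenter and below libraries overlapped uninjured cord, those above lay over it, and no comparison of Fth1 passed. The log2 fold change at the epicenter was 0.18 ± 0.14 (adjusted p = 0.282). Below the injury it was -0.15 ± 0.14 (adjusted p = 0.401), and -0.33 without replicate 3, which then passed (adjusted p = 0.00703, from 0.00134 to 0.958 over the alternatives). Above against below, 0.37 ± 0.14 did not pass (adjusted p = 0.0622), but passed in 5 of 27 alternatives. Among these were DESeq2 (adjusted p = 0.0273), limma-voom (0.0369) and the fit without below replicate 3 (log2 fold change 0.56, adjusted p = 0.000465). Above against uninjured cord, 0.22 ± 0.14 did not pass (adjusted p = 0.518). It passed in 2 of 27 alternatives, among them the compared libraries alone (adjusted p = 0.0067). Within each library the difference in log2 CPM between Fth1 and Ftl1 was 5.48 ± 0.09 in uninjured cord, 4.79 ± 0.08 above, with 2.26 ± 0.22 at the epicenter and 2.90 ± 0.72 below (SD, n = 4 each), a description with no test.

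Ftl1 shares 78.9% of its 50-base stretches with 15 other gene models, so the authors' counting may have split its reads or counted some in several rows. The row of the pseudogene Gm10116 went from 16.99 ± 0.89 CPM in uninjured cord to 160 ± 19.6 CPM at the epicenter, and Gm22133, a small RNA model overlapping an exon of Ftl1, from 21.1 ± 2.16 to 278 ± 16.6 CPM. Summed over Ftl1 and the 15 rows, the epicenter mean was 10.8-fold that of uninjured cord, against 10.5-fold for Ftl1 alone. If rows share reads, this sum counts them more than once. Of the Ftl1 exonic bases, 26.5% also lie under genes on the opposite strand, and the kit does not mark the strand.

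Of the export genes, Slc40a1 (ferroportin) rose modestly and Cp strongly, both at the epicenter and below. Slc40a1 was at 13.4, 12.5, 12.9 and 11.5 CPM in uninjured cord, 12.2, 12.9, 11.2 and 12.1 above, with 20.3, 19.3, 24.0 and 19.5 at the epicenter and 19.5, 14.3, 24.7 and 19.7 below. The segments above overlapped uninjured cord, and the epicenter and below libraries overlapped each other but not the other groups. Its log2 fold change was 0.72 ± 0.13 at the epicenter (adjusted p = 0.00023), 0.64 ± 0.13 below (adjusted p = 0.00146) and -0.05 ± 0.13 above (adjusted p = 0.907).

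Cp was at 18.0, 19.1, 15.1 and 15.7 CPM in uninjured cord, against 123, 97.8, 168 and 103 CPM at the epicenter. Below the injury it was at 109, 58.7, 173 and 133 CPM, as high as at the epicenter within the spread of the libraries. The log2 fold change was 2.86 ± 0.34 at the epicenter (adjusted p = 5.68e-06) and 2.80 ± 0.34 below (adjusted p = 1.77e-05). Above the injury replicate 1 held 54.9 CPM and the others 23.2, 22.1 and 25.3 CPM. There the log2 fold change was 0.88 ± 0.32, which did not pass (adjusted p = 0.181, from 0.0347 to 0.629 over the alternatives), and 0.47 without replicate 1. The same library held 349 CPM summed over 8 fibroblast and meningeal markers, against 70.6 to 74.8 in the other 3, and 537 CPM over 6 Schwann cell markers, against 177 to 183; their part in its Cp was not tested. The same markers were higher where Cp rose. All 8 fibroblast and meningeal markers rose both at the epicenter (median log2 fold change 6.48) and below (4.95), and their sum went from 48.2 to 66.9 CPM in uninjured cord to 2510 to 3692 CPM at the epicenter and 433 to 1759 CPM below. All 6 Schwann cell markers rose at the epicenter (median 3.37) and below (3.17), with sums of 158 to 240 CPM in uninjured cord, against 1816 to 2562 CPM at the epicenter and 1875 to 3035 CPM below. No marker of either list was at 0, and their part in the rise of Cp was not tested.

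Hamp, the hepcidin gene, was near the detection limit. The counts per library were 1, 4, 4 and 3 in uninjured cord, 6, 1, 5 and 2 above, with 17, 9, 4 and 6 at the epicenter and 6, 4, 0 and 5 below. With no filter on low counts the epicenter had a log2 fold change of 1.42 over uninjured cord, which did not pass (adjusted p = 0.126). Its paralog Hamp2, with which it shares 16.6% of its 50-base stretches, was at 0.559 ± 0.134 CPM in uninjured cord, against 0.606 ± 0.0854 CPM at the epicenter. Liver, the main source of hepcidin in the body, left little trace: 6 liver markers, albumin among them, summed to 1.85 to 3.27 CPM in every library.

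Of the uptake genes, the receptor Tfrc fell at the epicenter and below, while its ligand Trf did not pass against uninjured cord in any segment. Tfrc was at 199, 184, 168 and 169 CPM in uninjured cord, against 125, 187, 163 and 175 CPM above. At the epicenter it was at 64.5, 64.8, 70.2 and 82.0 CPM and below at 98.2, 122, 75.3 and 125 CPM. Epicenter and below libraries all lay under uninjured cord, and below replicate 3 lay within the epicenter range. The log2 fold change was -1.36 ± 0.15 at the epicenter (adjusted p = 4.09e-06), -0.78 ± 0.15 below (adjusted p = 0.00109) and -0.15 ± 0.15 above (adjusted p = 0.732). Tfrc was also the member called between epicenter and below (-0.58 ± 0.15, adjusted p = 0.0172), a call that was lost in 5 of 27 alternatives, with adjusted p up to 0.0761: with the compared libraries alone, and without epicenter replicate 1 (0.0521) or 2 (0.0519), or below replicate 2 (0.0543) or 4 (0.0589). In all 27 the log2 fold change stayed negative, from -0.71 to -0.49.

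Trf was at 1329, 1379, 1311 and 1347 CPM in uninjured cord, 1365, 1568, 1438 and 1475 above, with 1246, 1242, 1147 and 974 at the epicenter and 1215, 1048, 1555 and 1159 below. The epicenter libraries lay under all uninjured and all above libraries, by little. The log2 fold change from uninjured cord was -0.22 ± 0.12 at the epicenter (adjusted p = 0.114). It passed there in 4 of 27 alternatives, with adjusted p from 0.0137 to 0.304, and below in 3 of 27, with adjusted p from 0.0304 to 0.847. Without below replicate 3 it passed at the epicenter (-0.22, adjusted p = 0.0246), below (-0.23, adjusted p = 0.0481) and between above and below (0.36, adjusted p = 0.00916). The fall from the segment above to the epicenter, -0.34 ± 0.12, passed (adjusted p = 0.0227). That call was lost without above replicate 2 (adjusted p = 0.0616) or epicenter replicate 4 (adjusted p = 0.0738). The model Gm20425 overlaps 63.5% of the exonic bases of Trf on the same strand, and its row held 1331 ± 29.2 CPM in uninjured cord, close to the 1341 ± 29.1 CPM of Trf, so the rows of both genes cannot be read as separate measurements.

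Slc11a1, the metal transporter of phagosomes in macrophages and neutrophils, had the largest fold change of the 9 tested members, and was the member that rose in all 3 segments. It was at 2.81, 2.36, 2.55 and 3.24 CPM in uninjured cord, against 14.6, 13.0, 12.2 and 12.2 CPM above. At the epicenter it was at 76.2, 64.4, 81.7 and 48.0 CPM and below at 42.2, 15.4, 106 and 41.2 CPM. The uninjured, above and epicenter libraries formed 3 separate ranges, and the below libraries all lay over those above and overlapped the epicenter. Its log2 fold change was 4.62 ± 0.44 at the epicenter (adjusted p = 9.91e-07), 2.25 ± 0.41 above (adjusted p = 0.00581) and 4.23 ± 0.43 below (adjusted p = 5.33e-06). Below, it was 3.59 without replicate 3 and 4.53 without replicate 2. The call above was lost in 1 of 27 alternatives, limma-voom (adjusted p = 0.0756). These are RNA levels, and whether this strain makes a working Slc11a1 protein was not measured, so they do not give iron transport.

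Slc11a2, the endosomal transporter that passes transferrin iron to the cytosol, stayed between 55.1 and 64.5 CPM in all 16 libraries and was called in no comparison. Its largest log2 fold change was -0.10 ± 0.05, at the epicenter (adjusted p = 0.102, from 0.0155 to 0.499 over the alternatives, passing in 4 of 27, and at 0.0381 without below replicate 3). A p that misses the threshold does not show equal levels.

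**Figure D2:**
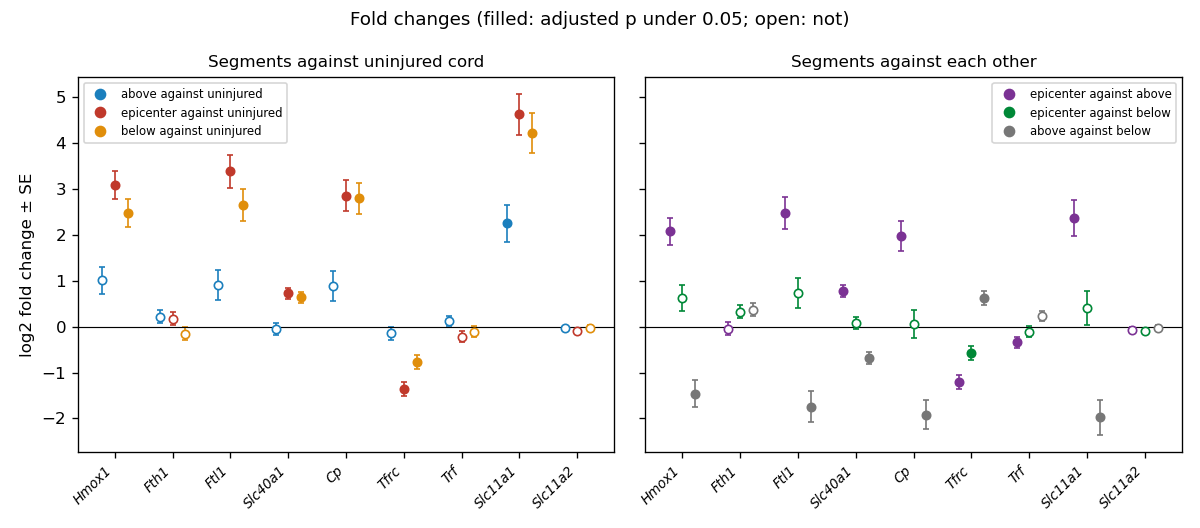
Log2 fold changes ± SE of the 9 tested members, for the segments against uninjured cord on the left and against each other on the right. Filled points passed at an adjusted p under 0.05 and open points did not; Slc11a1 is the filled point above the injury, and Tfrc the filled point between epicenter and below.

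Counted together at the epicenter, 5 of the 9 tested members rose, Tfrc fell and 3 did not pass, where 61.3% of all tested genes changed (31.9% higher, 29.3% lower), so 6 of 9 is near the background share. The median log2 fold change of the members was 0.72, beside 0.00 for all genes. Below the injury the same counts were 5, 1 and 3, where 39.3% of genes changed (23.6% higher, 15.7% lower), with a median of 0.64. Without below replicate 3, 8 of 9 members changed in each of these comparisons, where 65.8% and 35% of genes did. Above it, 1 of 9 changed, where 3.54% of genes did (3.09% higher, 0.446% lower), and 3 of 9 without below replicate 2 or without below replicate 3, where 5.23% and 9.56% of genes did. In CPM, 5 of the 9 members above, 8 at the epicenter and 6 below did not overlap uninjured cord, where 22.4%, 60% and 43.6% of all genes did not. These comparisons share the uninjured libraries.

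Between segments, 7 of 9 members differed from epicenter to above, where 52.7% of genes did (28.3% higher at the epicenter, 24.4% lower): Hmox1, Ftl1, Slc40a1, Cp and Slc11a1 were higher at the epicenter, and Tfrc and Trf lower. From above to below, 6 of 9 differed, where 24.4% of genes did (9.11% higher above, 15.2% lower): Tfrc was higher above and the same 5 genes lower. From epicenter to below, Tfrc was the 1 of 9 called, where 21.3% of genes were (11% higher at the epicenter, 10.2% lower). Groups did not overlap for 8 members between epicenter and above and for 6 between above and below, beside 50.8% and 25.7% of all genes, while between epicenter and below all 9 overlapped, beside 14.7% of genes that did not. Without below replicate 3 the 1 member called between epicenter and below became 5, since Hmox1 (log2 fold change 1.11, adjusted p = 0.00012), Ftl1 (1.31, adjusted p = 0.000118), Slc11a1 (1.04, adjusted p = 0.00396) and Fth1 (0.51, adjusted p = 0.000251) were then higher at the epicenter. In that fit 46% of all genes were called, so 5 of 9 is near its background share. Their adjusted p over all alternatives reached 0.359, 0.339, 0.848 and 0.374. Without below replicate 2, epicenter against below called 0 of 9, where 12% of genes were called. With the compared libraries alone, above against below called 3 of 9, where 7.23% of genes were called, and without below replicate 3 it called 8 of 9, where 21.1% were.

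Levels can be ordered between genes only per length, and the order depends on the length used. The deposited lengths are 9566 bases for Cp, 9000 for Slc40a1 and 2161 for Hmox1. The longest transcripts tagged as principal in GENCODE M21 have 4029, 3370 and 1569 bases, and with those the order of these genes would change. The orders given here hold for the deposited lengths and for the rows as counted. In RPKM, which is CPM divided by the gene length in kilobases, uninjured cord held Fth1 at 3544 ± 85.9, Trf at 404 ± 8.76, Ftl1 at 51.5 ± 3.65, Tfrc at 29.1 ± 2.39 and Slc11a2 at 9.45 ± 0.161 (SD, n = 4). Hmox1 followed at 2.16 ± 0.137, Cp at 1.77 ± 0.20, Slc40a1 at 1.398 ± 0.0933, Slc11a1 at 0.74 ± 0.103 and Hamp at 0.106 ± 0.045. At the epicenter the order was Fth1 at 4006 ± 428, Ftl1 at 539 ± 47.3, Trf at 347 ± 38.4, Hmox1 at 18.4 ± 3.00, Slc11a1 at 18.2 ± 4.03, Cp at 12.9 ± 3.35, Tfrc at 11.4 ± 1.33, Slc11a2 at 8.79 ± 0.089 and Slc40a1 at 2.31 ± 0.245. In these rows Ftl1 stood above Trf there, and Tfrc below Hmox1 and Slc11a1. Ftl1 and Trf share 78.9% and 79.8% of their 50-base stretches with other gene models. The Gm20425 row held 1120 ± 125 CPM at the epicenter, beside 1152 ± 128 CPM for Trf. How shared reads were counted is not known, so the order of Ftl1 and Trf is not settled in any group. By these lengths Hmox1 and Slc11a1, and Cp and Tfrc, were within their spread of each other. Above the injury Fth1 was at 4132 ± 192, Trf at 440 ± 25.5, Ftl1 at 96.8 ± 9.02, Tfrc at 26.3 ± 4.35, Slc11a2 at 9.20 ± 0.177, Hmox1 at 4.36 ± 0.127, Slc11a1 at 3.52 ± 0.306, Cp at 3.28 ± 1.65 and Slc40a1 at 1.35 ± 0.0794. Below it the spread was wide for several members: Fth1 was at 3190 ± 774, Trf at 375 ± 65.8, Ftl1 at 324 ± 225, Tfrc at 16.97 ± 3.73, Slc11a1 at 13.8 ± 10.4, Cp at 12.4 ± 4.99, Hmox1 at 12.0 ± 7.27, Slc11a2 at 9.32 ± 0.575 and Slc40a1 at 2.17 ± 0.474.

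Markers of several cell types differed between the groups as well. All 9 phagocyte markers, among them Cd68, Gpnmb and Lyz2, rose at the epicenter, 7 rose above and 9 below. Their summed level was 728 to 782 CPM in uninjured cord, 1410 to 1525 above, 5568 to 8538 at the epicenter and 1575 to 12783 below, and no marker was at 0. Below the injury the sum was 4220, 1575, 12783 and 4654 CPM in replicates 1 to 4, so that replicate 3 was high and replicate 2 low, as for Hmox1, Ftl1 and Slc11a1. Red blood cell markers, with 7 of 7 measured rising at the epicenter, summed to 50.2 to 102 CPM in uninjured cord, 225 to 288 above, 572 to 835 at the epicenter and 247 to 517 below. Neutrophil markers, with 9 of 9 rising at the epicenter, summed to 7.86 to 9.28 CPM in uninjured cord, 30.5 to 49.5 above, 135 to 509 at the epicenter and 55.0 to 93.6 below. The part of these cells in the changes was not tested.

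**Figure D3:**
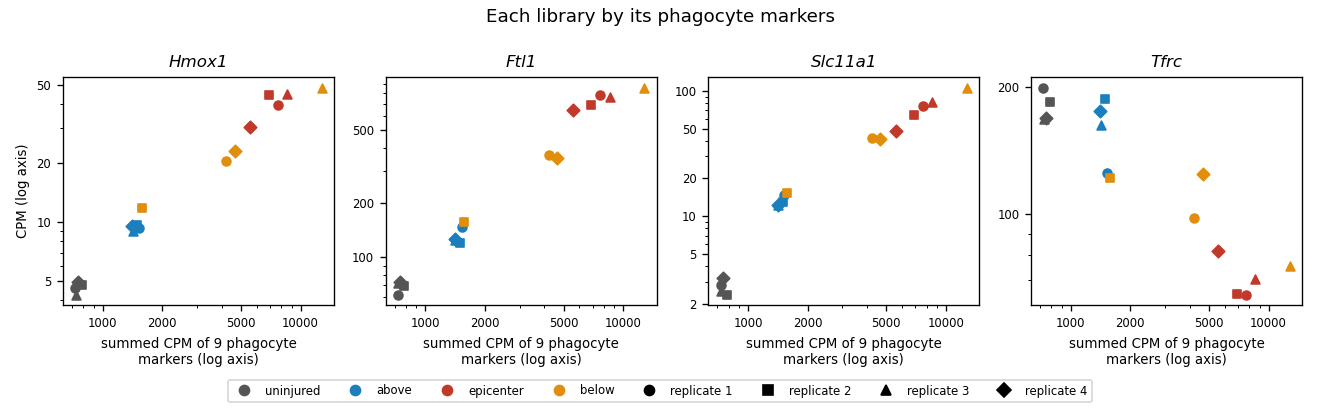
Level of Hmox1, Ftl1, Slc11a1 and Tfrc in each library (CPM) against the summed CPM of 9 phagocyte markers in the same library, both on log axes. Below replicate 3, at a marker sum of 12783 CPM, lies beyond the epicenter libraries, and below replicate 2, at 1575 CPM, beside the segments above; the points share their library, so no correlation is given.

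How Hmox1 compares with those 9 markers in the same library depends on how the markers are combined. With the mean of their log2 CPM, which weights every marker alike, the difference of Hmox1 was -0.24 ± 0.15 in uninjured cord, -2.13 ± 0.14 above, with -2.93 ± 0.13 at the epicenter and -2.90 ± 0.54 below (SD, n = 4 each; no test). Slc11a1 went from -1.003 ± 0.33 in uninjured cord to -1.67 ± 0.05 above, -2.18 ± 0.08 at the epicenter and -2.05 ± 0.23 below. With the log2 of their summed CPM, which the abundant markers dominate and which was chosen after seeing the data, Hmox1 changed from uninjured cord by 0.0489 above, -0.167 at the epicenter and -0.285 below, and Slc11a1 by 1.29, 1.36 and 1.34. The mean marker sum was 1.96-fold that of uninjured cord above, 9.60-fold at the epicenter and 7.77-fold below, beside 2.02-fold, 8.53-fold and 5.57-fold for Hmox1 and 4.76-fold, 24.7-fold and 18.7-fold for Slc11a1. No statement that either gene fell behind or outran phagocyte markers can rest on these values, since the direction turned for Slc11a1 in all 3 segments and for Hmox1 above. The difference of Cp from the mean of 10 astrocyte markers was -4.13 ± 0.14 in uninjured cord and -3.65 ± 0.64 above. It was -1.69 ± 0.28 at the epicenter and -1.73 ± 0.47 below. The astrocyte markers themselves summed to 6787 to 7076 CPM in uninjured cord, against 8690 to 11279 CPM at the epicenter, with 3 of 10 rising and 2 falling.

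Tfrc fell where, of 10 endothelial markers, 6 rose and 1 fell at the epicenter. Their sum was 298 to 365 CPM in uninjured cord, against 389 to 459 CPM at the epicenter. The difference of Tfrc from their mean in log2 CPM was 2.70 ± 0.07 in uninjured cord, 2.47 ± 0.37 above, with 0.84 ± 0.17 at the epicenter and 1.25 ± 0.69 below. Neurons, which also carry Tfrc, had 8 of 9 markers lower at the epicenter, with a sum of 9418 to 10063 CPM in uninjured cord, against 3121 to 5737 CPM at the epicenter; their part in the fall was not tested. The difference of Trf from the mean of 12 oligodendrocyte markers was 1.395 ± 0.03 in uninjured cord, 1.46 ± 0.08 above, with 1.51 ± 0.13 at the epicenter and 1.68 ± 0.12 below, where all 4 libraries lay over the uninjured ones. Of those 12 markers, 7 fell and 1 rose at the epicenter. The log2 of their summed CPM was an alternative chosen after seeing the data. Against it Trf changed from uninjured cord by 0.0101 above, -0.00234 at the epicenter and 0.288 below, so the direction at the epicenter depends on how the markers are combined.

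**Figure D4:**
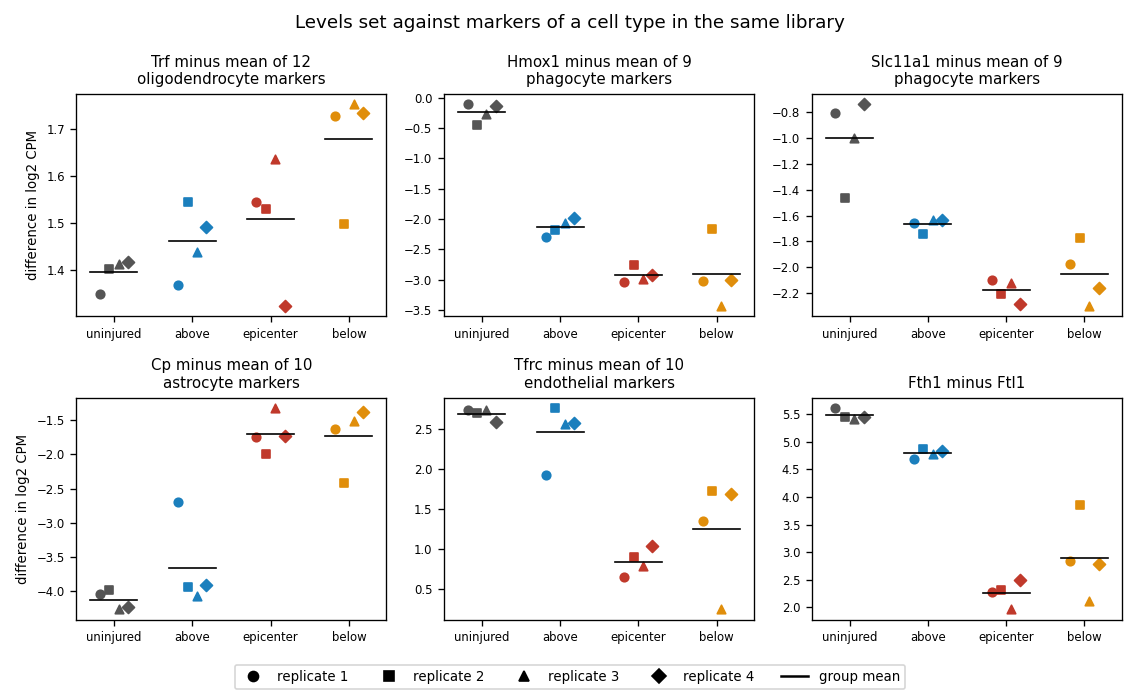
Difference in log2 CPM, within each library, between a member and the mean of a marker list, or between Fth1 and Ftl1. Symbols are replicates and lines group means; Hmox1 and Slc11a1 drop relative to the mean of the phagocyte markers in every segment, although relative to their summed CPM Slc11a1 climbs in all 3 and Hmox1 above, and Cp climbs relative to astrocyte markers at the epicenter and below, where Tfrc drops relative to endothelial markers.

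For each member whose group means spanned at least 1 on the log2 scale, the 3 genes with the most similar pattern over the 16 libraries were taken, by the root mean square difference of centred log2 CPM. For Hmox1 they were Tgif1 (0.147), Slc37a2 (0.153) and Cmklr1 (0.154). Slc11a1 was followed by Fam46c (0.196), Cd84 (0.217) and Tyrobp (0.221), and Cp by Nid2 (0.22), Gbgt1 (0.223) and Il1r1 (0.251). Ftl1 was nearest its own pseudogene Gm10116 (0.0864), then Apoe (0.131) and Gm22133 (0.147), and Tfrc was nearest Lnp (0.132), Edil3 (0.134) and Gm15063 (0.147).

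Beyond the 10 members, 77 further genes of heme and iron handling were listed, of which 73 were tested. At the epicenter 36 rose, 16 fell and 21 did not pass, with a median log2 fold change of 0.22, where 31.9% of all genes rose and 29.3% fell. Above the injury 3 rose (Alas2, Lcn2 and Bmp6), where 3.09% of genes did, and below it 30 rose and 9 fell, where 23.6% and 15.7% did. Without below replicate 3 the count above was 15, where 9.56% of genes were called, and without above replicate 1 it was 2, where 1.97% were. The counts of the shorter lists that follow are to be read against the same epicenter shares. Log2 fold changes in the rest of this account are epicenter against uninjured cord unless another segment is named.

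In heme breakdown and heme transport, 3 of 8 genes rose and 2 fell. Blvrb, a biliverdin reductase, rose from 5.40 ± 0.241 to 17.4 ± 1.73 CPM (1.69 ± 0.20) and the heme exporter Abcg2 from 19.2 to 42.1 CPM (1.13 ± 0.14). Hmox2, the constitutive heme oxygenase, fell from 82.1 to 69.6 CPM (-0.24 ± 0.08). All 4 tested genes that scavenge hemoglobin and heme rose: haptoglobin (Hp) from 0.09 to 5.52 CPM (5.92 ± 0.56), hemopexin (Hpx) from 0.173 to 0.663 CPM (1.97 ± 0.53), the haptoglobin-hemoglobin receptor Cd163 from 1.73 to 4.51 CPM (1.38 ± 0.24) and the hemopexin receptor Lrp1 from 821 to 1145 CPM (0.48 ± 0.15). The uninjured level of Hp, 0.09 CPM, was close to the 0.0316 to 0.0485 CPM that 3 counts equal, so the size of its fold change is uncertain. In heme synthesis 4 of 9 rose and 1 fell. Alas2, the erythroid form of the first enzyme, rose from 3.52 to 19.4 CPM (2.46 ± 0.20) and also above the injury (1.10 ± 0.19, adjusted p = 0.00484), where the red blood cell markers given earlier were higher too. Cpox, a later enzyme, fell from 76.6 to 45.1 CPM (-0.76 ± 0.05).

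Iron uptake and reduction had 7 of 11 genes higher and 2 lower. Lipocalin 2 (Lcn2), which binds iron-carrying siderophores and is made by neutrophils and reactive astrocytes, rose from 0.652 to 63.3 CPM (6.60 ± 0.47), and above the injury to 3.58 CPM (2.45 ± 0.43, adjusted p = 0.00485). Of the Steap metalloreductases, Steap4 rose from 0.329 to 18.5 CPM (5.81 ± 0.54) and Steap3 from 4.67 to 29.6 CPM (2.67 ± 0.28), while Steap2 fell from 93.6 to 35.1 CPM (-1.41 ± 0.25). The ferroxidase hephaestin (Heph) fell from 19.2 to 12.3 CPM (-0.64 ± 0.12), the opposite direction to Cp, and Hephl1, at 0.13 and 0.0958 CPM, did not pass (-0.47 ± 0.51, adjusted p = 0.439). Scara5, a receptor for ferritin, rose from 2.24 to 22.3 CPM (3.32 ± 0.35), and Ncoa4, which delivers ferritin to lysosomes, fell from 27.2 to 20.4 CPM (-0.42 ± 0.13).

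**Figure D5:**
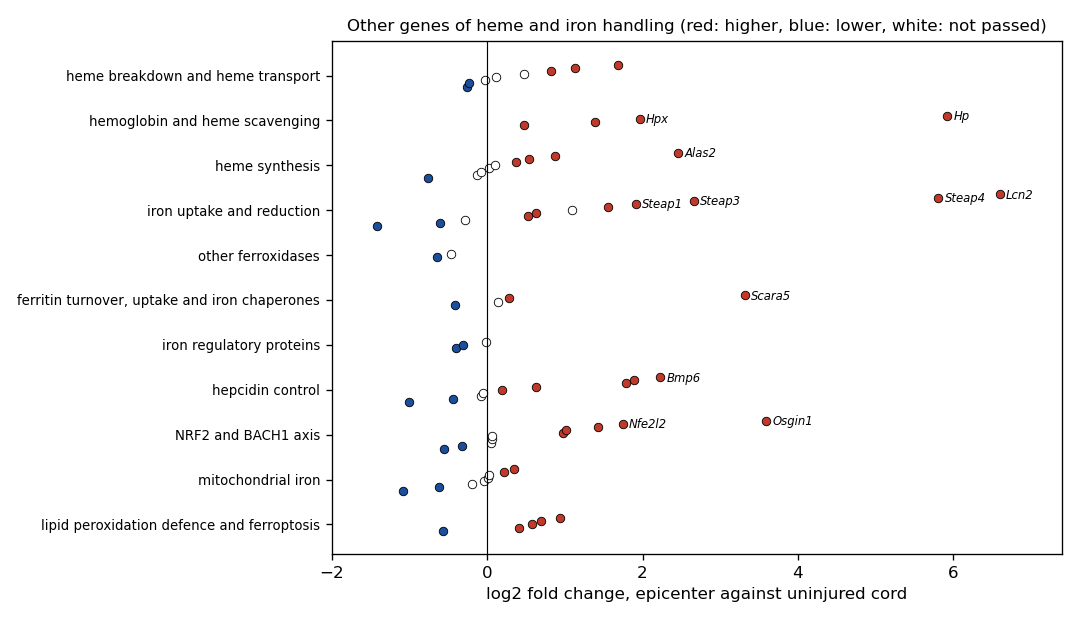
Log2 fold change, epicenter against uninjured cord, of the 73 tested genes of the other heme and iron lists, 1 point per gene and 1 row per list. Red points rose, blue points fell and white points did not pass. Among the named points, Lcn2, Hp and Steap4 lie farthest to the right, Hp from an uninjured level near the detection limit.

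In the list of iron regulatory proteins and their control, 2 of 3 genes fell. Aco1 was at 39.0 CPM in uninjured cord, against 38.7 CPM at the epicenter (-0.01 ± 0.08, adjusted p = 0.919), and Ireb2 fell from 77.9 to 59.2 CPM (-0.40 ± 0.10). Fbxl5, which marks Ireb2 protein for degradation, fell from 92.2 to 74.1 CPM (-0.31 ± 0.08).

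Among 9 tested genes of hepcidin control 5 rose and 2 fell. Bmp6, which signals iron load to hepcidin in liver, rose from 5.12 to 24.0 CPM (2.23 ± 0.25) and above the injury to 10.1 CPM (0.98 ± 0.25, adjusted p = 0.0383). Hfe, which senses transferrin iron, rose from 7.81 to 28.9 CPM (1.89 ± 0.23), Id1, a target of BMP signalling, from 7.995 to 27.6 CPM (1.79 ± 0.21), and the co-receptor Hjv, listed as Hfe2, fell from 0.674 to 0.333 CPM (-1.01 ± 0.35).

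Of 10 genes of the NRF2 and BACH1 axis, the activator and repressor that act on Hmox1, 5 rose and 2 fell. Nfe2l2 rose from 23.7 to 79.6 CPM (1.75 ± 0.21), Bach1 from 26.2 to 51.7 CPM (0.98 ± 0.14), Osgin1 from 0.5005 to 6.09 CPM (3.59 ± 0.39) and the cystine transporter Slc7a11 from 22.5 to 60.3 CPM (1.42 ± 0.22). Of other known NRF2 targets, Nqo1 rose from 8.36 to 16.9 CPM (1.02 ± 0.19), Gclm fell (-0.56 ± 0.07), Gclc fell (-0.33 ± 0.09), and Srxn1 (0.05 ± 0.09) and Txnrd1 (0.06 ± 0.07) did not pass. In the mitochondrial iron list 2 of 8 rose and 2 fell. In the list on lipid peroxidation and ferroptosis 4 of 5 rose and 1 fell. Gpx4, which reduces lipid peroxides, rose from 168 to 249.3 CPM (0.57 ± 0.09), and Acsl4, which supplies the lipids that are oxidised in ferroptosis, fell from 48.05 to 32.5 CPM (-0.56 ± 0.10).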

How the data were processed

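Values are raw counts, deposited by the authors as 1 table that also gives each gene a length, per the file headers. Libraries were made from 200 ng of RNA with the TruSeq v2 kit, per the labels' protocols. Build mm10 and the tools Subread 1.4.4, TopHat2 2.0.12 and edgeR come from the submitters' processing notes, without a stated role. What annotation and strand setting were used, and how reads matching several places were treated, is not given in the sources used here. Near-identical or overlapping genes may split, share or lose reads.

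Rows were filtered with filterByExpr by group, scaled with TMM factors and tested with glmQLFTest of edgeR 4.0.16 (R 4.3.3) in 1 fit of all 16 libraries, for 6 comparisons. Benjamini-Hochberg adjustment ran over 23769 rows, and genes were called at an adjusted p under 0.05. CPM use the same factors, RPKM divides them by the deposited length in kilobases, and the SE is the log2 fold change over the square root of F. Differences between members and marker lists use log2 CPM with a prior count of 2. The step was checked on simulated counts. The alternatives were other scaling factors, no filter, a stricter filter, DESeq2 1.42.0, limma-voom (limma 3.58.1) with and without library weights, the compared libraries alone, a replicate block, leaving out each library, and leaving out both libraries that stood apart.

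The members, gene lists and tests were chosen with earlier results of these data known. Named beside the members are list genes that changed at the epicenter by at least 1 on the log2 scale, up to 3 per direction and list, and all genes of lists of up to 3. Of the genes this rule names, 1 is not reported here. Hmox2, Lrp1, Cpox, Ncoa4, Bach1, Gclm, Gclc, Srxn1, Txnrd1, Nqo1, Gpx4 and Acsl4 were named after their values were seen. Of the listed marker genes, Ahsp was not matched to a row. Hairpins were searched in GENCODE M21 transcripts on GRCm38, the assembly behind mm10.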

Additional observations from a re-analysis of the deposited data

Results flagged for a closer look

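In 3 of 64 groups of 4 libraries tested, 1 library lay far from the other 3, and chance flags about 1 in 20 groups. Cp was at 54.9 CPM in above replicate 1, where the nearest library of that segment held 25.3 CPM. In the same library the difference of Cp from the astrocyte markers was -2.70 in log2 CPM, the nearest being -3.91. Below the injury, the difference of Trf from the oligodendrocyte markers was 1.497 in replicate 2, the nearest being 1.73.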

How the results depend on the processing

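Of 54 member comparisons, 27 passed, and 21 of these passed in all 27 alternatives, while 11 of the 27 that did not pass did so in none. The number of members called above the injury against uninjured cord was 1; it was 2 with DESeq2, 5 with library weights in limma-voom, 5 with the compared libraries alone, 1 to 3 leaving out 1 library, and 3 without above 1 and below 3 together. It was 0 with limma-voom, where 4 members had an unadjusted p under 0.05, as in the edgeR fit. Between epicenter and below it was 1, against 2 with library totals, 3 with limma-voom, 5 with library weights and 5 without above 1 and below 3 together. It was 0 with the compared libraries alone (1 member with an unadjusted p under 0.05), and 0 to 5 leaving out 1 library: the fits without epicenter 1 or 2 or below 2 or 4 gave 0, with 1 or 2 members at an unadjusted p under 0.05, and the fit without below 3 gave 5. Above against below, 6 became 3 with the compared libraries alone and 8 without below 3. Over all genes, the share called above against uninjured was 3.54%, and 14.9% with library weights, 16.6% with the compared libraries alone, 6.92% without above 1 and below 3 together and 1.13% with limma-voom. Between epicenter and below it was 21.3%, and 48.4%, 0.134%, 47% and 22.6% in the same fits. The cause was not tested. With a replicate block 54 of 54 results kept their call and direction, and 1 member each stayed called above the injury and between epicenter and below. Equal replicate numbers were not shown to pair samples in any pair of groups, since at least 1 of 4 correlations of deviations was under 0.1 in each. Epicenter and below came nearest, as a hint from the data and not the design: their correlations were 0.0789 to 0.309, 3 of 4 over 0.1, and all 4 samples correlated best with their own number. Above and epicenter had 2 of 4 over 0.1, above and below 1 of 4, and pairs with uninjured cord none.

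In 17 cases an uncalled log2 fold change turned sign, each still uncalled. With library totals these were Cp epicenter against below (-0.027), Trf below against uninjured (0.0328), and Slc11a2 above (0.00712) and below (0.122) against uninjured. With library weights they were Fth1 epicenter against above (0.0245) and Slc11a2 above against below (0.0151), which was 0.0162 with no filter and 0.0371 without above 1 and below 3 together. That pair left out gave Trf epicenter against below 0.0146, and the compared libraries alone gave Slc11a2 below against uninjured 0.00123. Leaving out 1 library, Slc40a1 epicenter against below ran from -0.0387 to 0.22, Cp from -0.166 to 0.299 and Trf from -0.185 to 0.0142 in the same comparison. Fth1 epicenter against above ran from -0.095 to 0.022, Slc11a2 above against below from -0.0382 to 0.0268, and below against uninjured from -0.064 to 0.000973. Set against the summed CPM of the markers in place of the mean of their log2 CPM, an alternative chosen after seeing the data, the change from uninjured cord turned sign for Slc11a1 above (1.29), at the epicenter (1.36) and below (1.34), for Hmox1 above (0.0489) and for Trf at the epicenter (-0.00234). Depth limits Hamp alone among the members, at 0 to 17 counts per library.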
